A study of Mus musculus with 7 samples.

Results

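The natriuretic peptide system was taken as 7 genes, chosen by function from the 24421 gene rows of the table: the peptide genes Nppa, Nppb and Nppc, the protease gene Corin and the receptor genes Npr1, Npr2 and Npr3. All 7 were present, and 6 passed the filter on low counts; Nppc did not. Transcripts were counted in the left atrium of adult mice of the outbred CD1 stock, in 4 libraries with a FOG2 Overexpression genotype and 3 with a WT genotype. The protocol calls the animals DTG and NTG, and hearts of both came from animals kept off doxycycline for 1 week. The sources used here name neither the promoter that drives the transgene nor the sex of the animals, and do not say whether each library was 1 animal; p-values therefore reflect only how these libraries vary, which may be technical. Zfpm2 encodes FOG2, a cofactor of GATA transcription factors; the comparison asks which atrial transcripts differ when FOG2 is overexpressed.

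Atrial muscle is an endocrine tissue. Its cardiomyocytes store the precursor of atrial natriuretic peptide, encoded by Nppa, in secretory granules and release it when the wall is stretched, and the linked gene Nppb encodes brain natriuretic peptide, whose transcript responds to stretch and load. Corin, a membrane serine protease of cardiomyocytes, cuts the Nppa precursor into the active hormone. The peptides act on Npr1 and Npr2, receptors that make cyclic GMP (cGMP), while Npr3 binds and clears them. Nppc encodes C-type natriuretic peptide, the main ligand of Npr2, made mostly outside cardiomyocytes.

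Nppb and Nppa are neighbours on the plus strand of chromosome 4 (mm10), Nppb from 147985788 to 147987205 and Nppa from 148000722 to 148002079, with annotated starts 14.9 kb apart. GATA factors are known to bind the proximal promoters of both genes. The promoter windows of the pair, 250 bases before to 50 bases after the start as RefSeq gives them for GRCm38.p6, are shown because FOG2 acts through GATA factors and because both genes were lower in all 4 overexpression libraries than in any wild type library. RefSeq's start for Nppb lies inside the GENCODE gene. Capitals mark the GATA motif, the T-box core AGGTGT and the NKX2-5 core AAGTG, or their reverse complements; in these 2 windows no marked stretch overlaps another.
Nppb (chr4:147985650-147985949, plus strand): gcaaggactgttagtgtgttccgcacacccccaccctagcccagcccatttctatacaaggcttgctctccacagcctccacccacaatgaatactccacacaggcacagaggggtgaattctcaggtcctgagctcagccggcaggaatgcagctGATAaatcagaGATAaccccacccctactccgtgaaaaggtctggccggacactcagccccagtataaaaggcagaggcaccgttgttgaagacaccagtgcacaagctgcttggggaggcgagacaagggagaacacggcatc
Nppa (chr4:148000472-148000771, plus strand): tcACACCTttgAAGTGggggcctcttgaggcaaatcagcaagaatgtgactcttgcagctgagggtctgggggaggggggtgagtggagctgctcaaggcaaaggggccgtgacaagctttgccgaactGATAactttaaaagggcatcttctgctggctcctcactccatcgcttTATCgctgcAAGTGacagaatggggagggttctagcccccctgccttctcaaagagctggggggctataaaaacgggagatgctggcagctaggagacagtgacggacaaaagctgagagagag
Nppb held GATA on the plus strand at -94 and -83 from the start, and neither of the other motifs. In Nppa, GATA was read on the plus strand at -121 and on the minus strand at -74, AGGTGT on the minus strand at -248, and AAGTG on the plus strand at -239 and -65. Of 32851 promoter windows in the same table, 57.9% held GATA on either strand, 13.7% AGGTGT and 46.4% AAGTG, so a single match is common for GATA and AAGTG. Among the other members, the window of Npr2 held 1 GATA and 1 AGGTGT, and those of Corin, Npr1, Npr3 and Nppc held none of the 3. Letters in such a window are a description and show neither binding nor its absence.

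Reads counted to genes came to 5562520 to 8655655 per library. Zfpm2 was higher in every overexpression library, at 140.1, 222, 262 and 246 CPM (counts scaled to a common library total adjusted by TMM) in replicates 1 to 4 against 31.7, 30.9 and 29.4 CPM in wild type replicates 1 to 3. Overexpression replicate 1, with the lowest Zfpm2 of its group, stood apart: across genes its log2 CPM correlated with the others of its group at a mean r of 0.948, against 0.969 to 0.972 for the other 3 and 0.979 to 0.982 in wild type. It was also the 1 overexpression library with Y-linked transcripts, as wild type replicate 2 was in its group. Of 13295 genes tested, 206 were called higher (1.55%) and 438 lower (3.29%), 4.84% in all, in overexpression with edgeR's quasi-likelihood test at a Benjamini-Hochberg adjusted p under 0.05. Those shares are the background for the counts of calls below.

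Corin fell, and the other 5 members tested did not pass the edgeR test: 1 of 6 was lower and 0 higher, where 3.29% of all tested genes were lower, 1.55% higher and 4.84% either. At an unadjusted p under 0.05 there were 3 lower (Corin, Nppb and Nppa) and 0 higher, where 10% of all tested genes were lower and 9.14% higher. DESeq2 called 1 lower and 0 higher (5.12% and 3.46% of all genes), and limma-voom 2 lower and 0 higher (3.27% and 1.38%). The overexpression libraries lay wholly below wild type for those 3 genes, as they did for 10.8% of all tested genes (8.99% lay wholly above, 19.8% either), and overlapped wild type for the 3 receptors. The median log2 fold change of the 6 was -0.34, against 0.02 over all tested genes. Without overexpression replicate 1, 2 of the 6 were called lower, Nppb being the second, and 0 higher, where 4.99% of all tested genes were lower, 3.74% higher and 8.73% either.

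**Figure D1:**
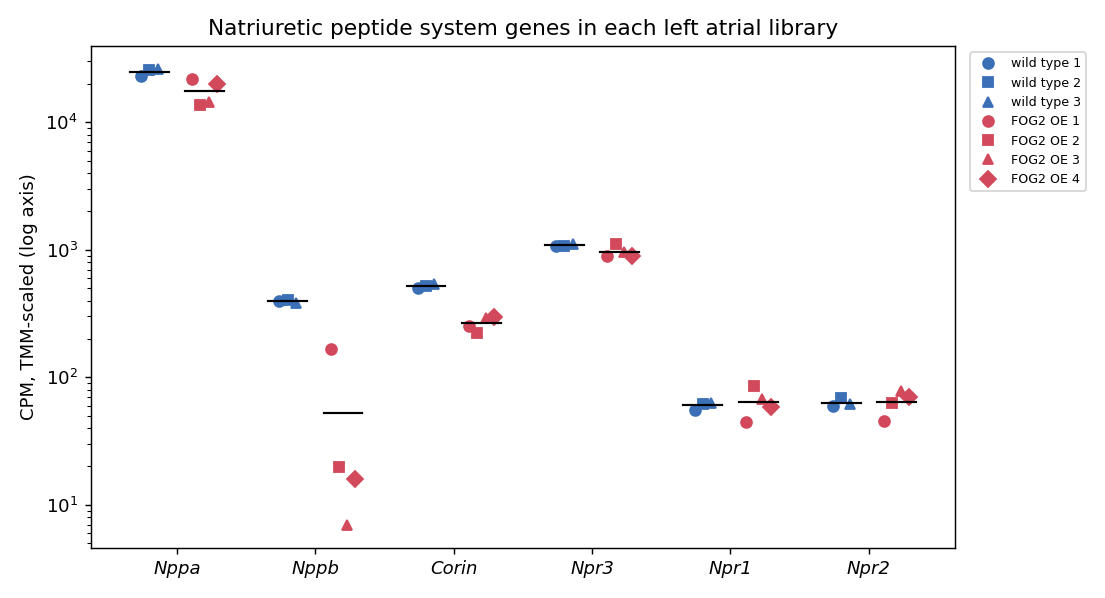
CPM on a log axis of the 6 tested genes in the 3 wild type (blue) and 4 overexpression (red) libraries; each symbol shape is a replicate number and each black line a group mean. Overexpression points lie below wild type for Nppa, Nppb and Corin and reach both below and above wild type for each receptor gene. Replicate 1 holds the highest Nppb of its group at 168 CPM.

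Nppb showed the widest spread among overexpression libraries. Wild type replicates 1 to 3 had 396, 404 and 382 CPM, from 3322, 2859 and 3105 reads. Overexpression replicates 1 to 4 had 168, 19.6, 6.96 and 15.8 CPM, from 1514, 136, 40 and 136 reads. Every overexpression library was thus below every wild type library, but by unequal amounts: on the log2 CPM scale with a prior count of 2, replicate 1 lay 2.34-fold below the wild type mean and replicates 2, 3 and 4 lay 19.8-fold, 54.6-fold and 24.5-fold below it. The highest overexpression library held 24.2 times the CPM of the lowest, where the wild type libraries differed by at most 1.06 times. With all libraries the log2 fold change was -2.88 ± 0.97 (SE), which missed the threshold (edgeR adjusted p = 0.163). Without overexpression replicate 1 it was -4.77 ± 0.29 (edgeR adjusted p = 8.24e-05), and without both libraries that held Y-linked transcripts, an alternative added after the data were seen, -4.76 ± 0.34 (edgeR adjusted p = 0.00120). With the Y-linked level added to the model it was -3.78 ± 0.75 (edgeR adjusted p = 0.0427), and by limma-voom -3.86 ± 0.82 (adjusted p = 0.0321). The other 16 of 20 alternatives missed the threshold. Among them, DESeq2 gave an adjusted p of 0.0814. Leaving out any library other than overexpression replicate 1 gave an edgeR adjusted p of 0.180 to 0.374. Wild type replicate 2, which also held Y-linked transcripts, had the highest Nppb of all libraries, but the 3 wild type libraries differed by at most 1.06 times. Replicate 1 also had the highest summed level of epicardial and mesothelial markers, at 1000 CPM. Replicates 2 to 4 had 692, 533 and 538 CPM, and wild type had 503 to 590 CPM. Replicate 1 thus differed from the other overexpression libraries in its Zfpm2 level, its Y-linked transcripts, these markers and its Nppb level together, so these cannot be told apart.

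**Figure D2:**
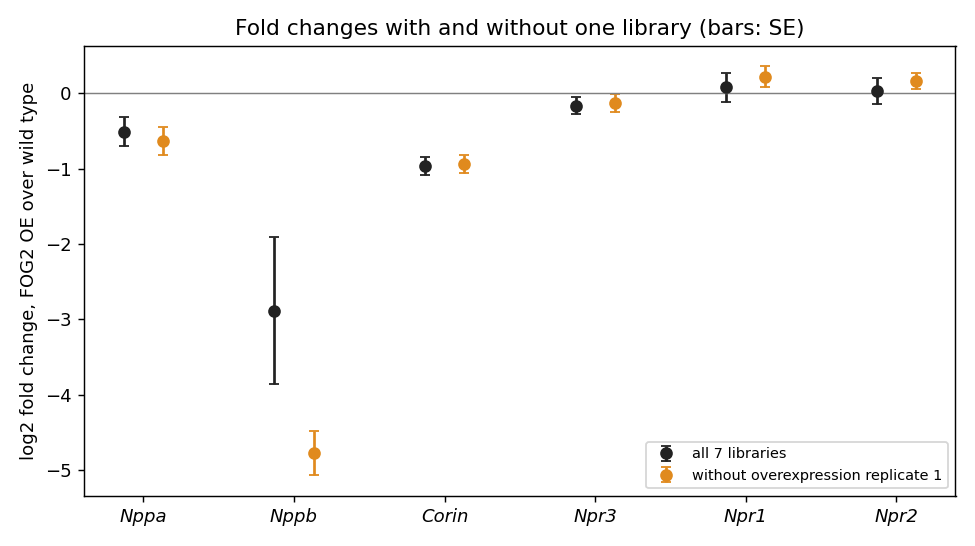
Log2 fold change of overexpression over wild type for the 6 tested genes with all 7 libraries (black) and without overexpression replicate 1 (orange); bars are standard errors. Nppb goes from -2.88 with an error of 0.97 to -4.77 with an error of 0.29, and Corin from -0.97 to -0.94.

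Nppa, the atrial natriuretic peptide gene, had 22867, 25845 and 26300 CPM in wild type, against 21995, 13757, 14369 and 20144 CPM in overexpression replicates 1 to 4. Replicate 1 was the highest overexpression library and lay just below the lowest wild type library, and replicates 2 and 3 were lowest. The means were 25004 ± 1865 CPM (SD, n = 3) and 17566 ± 4123 CPM (SD, n = 4), a log2 fold change of -0.51 ± 0.20 that missed the threshold (edgeR adjusted p = 0.196). Without overexpression replicate 1 it was -0.64 ± 0.18 (edgeR adjusted p = 0.0589). Nppa overlaps the antisense gene Gm13054 in the GENCODE annotation, and no source used here gives the strand setting of the counting, so reads of the pair cannot be told apart.

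The proportion of Nppb to Nppa reads was lower in every overexpression library than in any wild type library. Nppb reads came to 1.73%, 1.56% and 1.45% of Nppa reads in wild type replicates 1 to 3 and to 0.765%, 0.143%, 0.0484% and 0.0786% in overexpression replicates 1 to 4. This ratio is taken within a library and needs no scaling between libraries. Its mean difference was -3.47 on the log2 scale (exact permutation test over 35 splits, two-sided p = 0.0571, the smallest p that 4 against 3 libraries allow).

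Per length, Nppa was the most abundant of the 23376 genes with an annotated length in wild type, at 93987 ± 2929 TPM (reads per exon length, scaled to a fixed total; SD, n = 3), and the second most abundant in overexpression at 73593 ± 14948 TPM (SD, n = 4). Nppb followed at 1645 ± 106 TPM in wild type, rank 57, then Npr3 at 376 ± 11.6, Corin at 314 ± 4.24, Npr2 at 44.0 ± 3.26, Npr1 at 41.0 ± 0.971 and Nppc at 1.16 ± 1.42 TPM (SD, n = 3 each). The wild type libraries of Npr1 and Npr2 overlapped, and those of the other neighbours in this order did not. In overexpression, Nppb had 749 TPM in replicate 1, above Npr3, and 91.3, 34.4 and 73.2 TPM in replicates 2 to 4, all below Corin, which had 149.6 to 210 TPM.

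Nppc, encoding the C-type peptide, was at the limit of detection. Its reads were 7, 0 and 2 in wild type and 1, 5, 3 and 0 in overexpression, 9 in each group. At a depth where 1 read stands for 0.111 to 0.174 CPM, no difference was detectable.

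Corin fell in overexpression. Wild type replicates 1 to 3 had 501, 519 and 541 CPM, and overexpression replicates 1 to 4 had 250.2, 223, 294 and 299 CPM. The groups were far apart compared with their spread, and replicate 1 lay within its group. The means were 520.5 ± 20.2 CPM (SD, n = 3) and 266 ± 36.5 CPM (SD, n = 4), 1.95-fold lower on the fitted scale, at -0.97 ± 0.12 in log2 (edgeR adjusted p = 0.00261). The call held in each of 20 alternatives, with log2 fold changes of -1.03 to -0.39 and adjusted p of 1.37e-11 to 0.0234. The gene lies on the minus strand of chromosome 5 from 72300025 to 72504473 (mm10).

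Corin, Nppa and Nppb are known as cardiomyocyte genes, so markers of atrial cardiomyocytes are given beside them. Of 13 such markers tested, 5 fell (Dkk3, Kcnj3, Sln, Myl7 and Fgf12), 0 rose and 8 were not called. By the same test, 3.29% of all tested genes fell and 1.55% rose. The uncalled markers ran from Gja5 at -1.07 to Kcna5 at 0.06 and Nr2f2 at 0.22. The median of the 13 was -0.69. Of them, 9 lay wholly below wild type and 0 wholly above, as did 10.8% and 8.99% of all tested genes. The list's summed level was 47539 to 55089 CPM in wild type, against 28592 to 37452 CPM in overexpression; none of the 14 markers in the table was at 0 throughout. In bulk tissue, fewer cells of a type and less RNA per cell cannot be told apart, and the part of this shift in the lower Corin was not tested as a cause. Libraries were also scaled to 33 sarcomere genes, which moved the median of all genes to 0.605. Corin was still called lower (-0.39 ± 0.13, edgeR adjusted p = 0.0234), which is -0.99 relative to that median. Nppb stood at -2.34 ± 1.12 (adjusted p = 0.115), or -2.94 relative to it, and Nppa at 0.061 ± 0.16, or -0.54 relative to it. Scaling shifts all genes nearly alike, so these relative values are close to those of the main fit (-0.99, -2.90 and -0.53) and are not separate evidence. In the main fit, 8 of the 33 sarcomere genes were called lower and 0 higher (3.29% and 1.55% of all tested genes), with a median of -0.36.

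**Figure D3:**
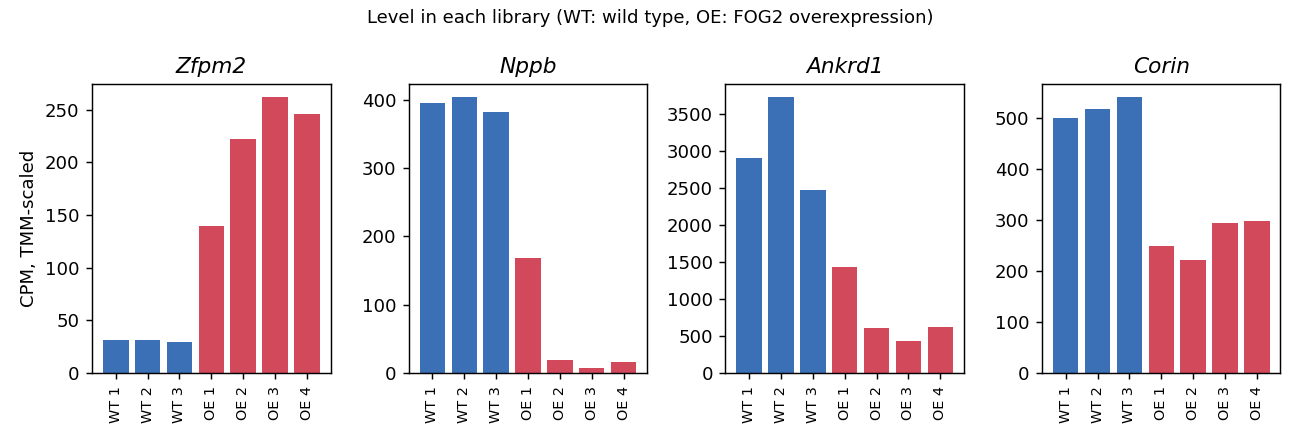
CPM of Zfpm2, Nppb, Ankrd1 and Corin in each wild type (blue) and overexpression (red) library, on axes that start at 0. Replicate 1 has the lowest Zfpm2 (140.1 CPM) and the highest Nppb (168 CPM) and Ankrd1 (1441 CPM) of its group, while its Corin (250.2 CPM) lies within the group.

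The 3 receptor genes were not called in either direction. Scaled to the sarcomere genes, all 3 were called higher, Npr1 at 0.69, Npr2 at 0.62 and Npr3, whose sign turned, at 0.43, but so were 62.7% of all tested genes (1.32% were lower); relative to the median gene they were at 0.08, 0.01 and -0.17. Npr3, the clearance receptor, which in the adult heart is known from the endocardium, had 1065, 1075 and 1109.6 CPM in the wild type libraries and 897, 1113, 957 and 898 CPM with overexpression, a log2 fold change of -0.16 ± 0.12 (edgeR adjusted p = 0.481). Overexpression replicate 2 was the highest of all 7 libraries and the other 3 lay below wild type. Beside it, the 8 endocardial markers tested had 1 higher (Tmem100) and 1 lower (Tmem108), where 1.55% and 3.29% of all tested genes were. The summed level over the list was 1151 to 1318 CPM in wild type, against 873 to 991 CPM in overexpression. The part of these markers in the Npr3 level was not tested.

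Npr1, the cGMP-making receptor for the Nppa and Nppb peptides, had 55.6, 61.9 and 63.3 CPM in wild type, against 44.7, 85.3, 67.2 and 58.3 CPM in overexpression (0.08 ± 0.19, edgeR adjusted p = 0.855). Replicate 1 was the lowest and replicate 2 the highest of all 7 libraries. Npr2, which prefers the C-type peptide, had 59.3, 68.8 and 61.2 CPM in wild type, against 45.8, 63.3, 78.1 and 70.5 CPM in overexpression (0.03 ± 0.17, edgeR adjusted p = 0.947), with replicate 1 again the lowest. Without replicate 1 neither was called (Npr1 0.22, Npr2 0.16). The reads of Npr3 were 19.2, 17.4 and 17.5 times those of Npr1 in wild type and 20.1, 13.04, 14.2 and 15.4 times in overexpression, a mean log2 difference of -0.22 (exact permutation test over 35 splits, two-sided p = 0.286). Replicates 2 to 4 lay below the wild type range and replicate 1 above it. In mm10, Npr1 lies on the minus strand of chromosome 3 from 90450591 to 90465866, Npr2 on chromosome 4 (plus strand) from 43631935 to 43651244, and Npr3 on the minus strand of chromosome 15 from 11839896 to 11907287. Npr1 overlaps the antisense gene Gm16048, Npr2 the antisense gene Gm12473, Npr3 the gene Gm5144 and Corin the antisense gene Gm20647, so part of their reads could belong to those genes.

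Of 9 annotated protein-coding genes around the pair, 8 were tested and edgeR called 0. At an unadjusted p under 0.05, 0 were higher and 2 lower, where 9.14% and 10% of all tested genes were. DESeq2 and limma-voom called 0 of the 8. Their log2 fold changes ran from -0.39 (Mfn2, a mitochondrial fusion protein) to 0.54 (Fv1 and Miip). Clcn6, an endosomal chloride transporter whose gene lies next to Nppa, had 15.9 ± 1.58 CPM in wild type, against 16.3 ± 1.18 CPM in overexpression (0.03 ± 0.13), and 2510039O18Rik, the neighbour of Nppb on the other side, had 28.1 ± 1.98 and 30.9 ± 3.35 CPM (0.13 ± 0.12). Agtrap, which binds the angiotensin receptor, was at -0.37 ± 0.13 (edgeR adjusted p = 0.151). Draxin was below the filter.

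**Figure D4:**
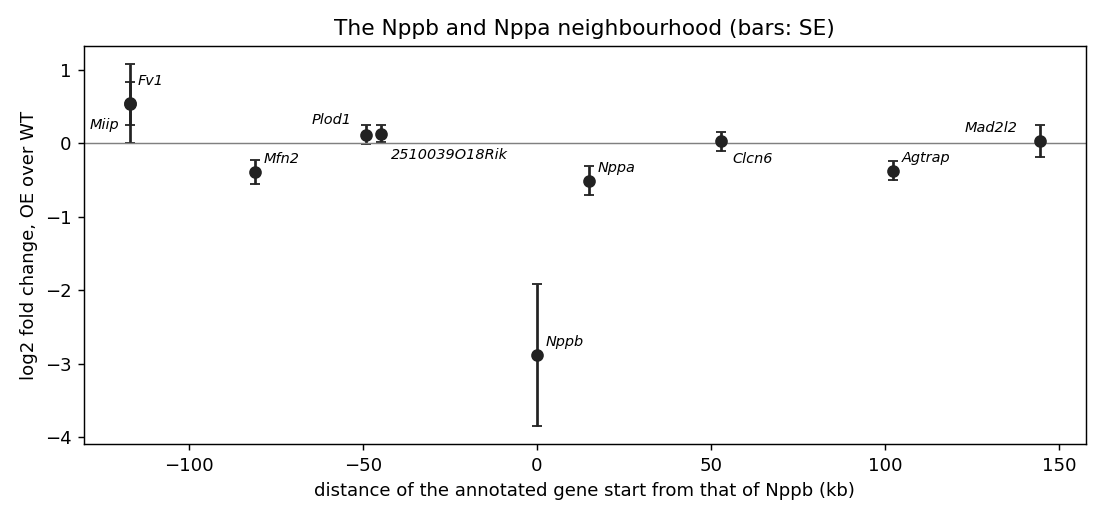
Log2 fold change (bars, standard error) of Nppb, Nppa and 8 tested neighbours against the distance of each annotated start from that of Nppb in kb. Nppb stands at -2.88 and Nppa at -0.51, while the neighbours lie between -0.39 and 0.54.

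Over the 7 libraries, the genes whose log2 CPM was most like that of Nppb were Dbt, a subunit of branched-chain keto acid dehydrogenase (r = 0.988), Adh5 (r = 0.982) and Ankrd1, a stretch-responsive cardiac ankyrin repeat protein (r = 0.982), among 11096 genes with a mean of at least 5 CPM. Dbt and Adh5 had log2 fold changes of -0.40 and -0.26 and were not called. Ankrd1 had 2905, 3730 and 2477 CPM in wild type, against 1441, 614, 432 and 622 CPM in overexpression; like Nppb it was highest in replicate 1 of that group. It fell by the test with all libraries (-1.97 ± 0.39, edgeR adjusted p = 0.0288). The call was lost without wild type replicate 1 (adjusted p = 0.0932), 2 (0.130) or 3 (0.0653) or overexpression replicate 2 (0.0571) or 4 (0.0530), and with no filter on low counts (0.0754). Nppa was most like Pon2 (r = 0.986), Lactb2 (0.978) and Socs6 (0.978), and Corin most like Lmo7 (0.998), Strip2 (0.993) and Uqcc1 (0.991). All 3 genes like Corin were called lower, at -0.62, -0.89 and -0.47. The nearest genes were Rab40b for Npr3 (r = 0.988), Bloc1s1 for Npr1 (0.978) and Dnajc18 for Npr2 (0.986). These correlations share libraries, depth and the group difference, and are descriptions. Because the genes were picked by likeness across both groups, their fold changes and calls follow in part from that choice. They are not separate evidence.

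The enzymes that activate and break down the peptides showed no call. Of 10 tested, edgeR called 0 higher and 0 lower. At an unadjusted p under 0.05 there were 2 higher and 0 lower, where 9.14% and 10% of all tested genes were. DESeq2 called 1 higher and limma-voom 0, where they called 3.46% and 1.38% of all tested genes higher. Pcsk7 and Pcsk5, proprotein convertases, had 35.1 ± 2.15 against 44.8 ± 1.90 CPM (0.35 ± 0.09, edgeR adjusted p = 0.0695) and 15.3 ± 1.08 against 20.9 ± 2.83 CPM (0.45 ± 0.14, adjusted p = 0.114). Pcsk6, the convertase that activates Corin, had 91.8, 81.5 and 107.3 CPM in wild type, against 77.4, 149.2, 132 and 123 CPM in overexpression (0.36 ± 0.21, edgeR adjusted p = 0.387); without overexpression replicate 1, its lowest library, it was called higher (0.53 ± 0.12, adjusted p = 0.0198), as it was when scaled to the sarcomere genes (0.0109). Ide, the insulin-degrading enzyme, which also cleaves natriuretic peptides, was at -0.19 ± 0.09. Furin, a convertase that processes the Nppb precursor, was at 0.15 ± 0.13 and Mme, the neprilysin that degrades the peptides, at 0.25 ± 0.28; these 2 were named for their role after their values were seen.

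The secretory granule list had 13 tested genes, of which 2 rose, 1 fell and 10 were not called. Over all tested genes, 1.55% rose and 3.29% fell. The median of the list was -0.09. Pam, an enzyme that is a main membrane protein of atrial granules, fell from 12981, 14783 and 14240 CPM in wild type to 6658, 6422, 8011 and 8891 CPM in overexpression (-0.90 ± 0.15, edgeR adjusted p = 0.0115). As for Corin, replicate 1 lay within its group. Leaving out wild type replicate 2 gave an adjusted p of 0.0726, leaving out wild type replicate 3 gave 0.0552, and it was 0.0629 when scaled to the sarcomere genes. Vamp8, a vesicle fusion protein, rose from 44.5 ± 1.98 to 65.2 ± 5.11 CPM (0.55 ± 0.10, edgeR adjusted p = 0.0133), and Rab27b, a GTPase of secretory vesicles, from 12.8 ± 0.405 to 22.7 ± 3.55 CPM (0.82 ± 0.15, adjusted p = 0.0137). The adjusted p of Vamp8 was 0.0606 and 0.0858 without wild type replicates 1 and 2, and that of Rab27b 0.0632, 0.0760 and 0.0535 without wild type replicates 1, 2 and 3. Leaving out wild type replicate 1 gave the list 0 higher and 1 lower; it had 0 and 0 without wild type replicate 2, and 1 and 0 without wild type replicate 3. Stx4a, a vesicle docking protein, was at -0.37 ± 0.11 (adjusted p = 0.0894).

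Downstream of the receptors, the cGMP response list went both ways, with 2 of 21 tested genes higher and 3 lower and a median of 0.06. EdgeR called 1.55% of all tested genes higher and 3.29% lower. Pde1c, a calcium-activated phosphodiesterase, fell from 78.1, 99.1 and 79.9 CPM to 9.44, 13.4, 25.1 and 13.7 CPM (-2.50 ± 0.28, edgeR adjusted p = 0.00201), while its relative Pde1b rose (2.53 ± 0.21). Kcnma1, a large-conductance potassium channel that cGMP-dependent kinase activates in smooth muscle, rose from 3.22, 3.95 and 2.96 CPM to 9.55, 20.7, 28.5 and 23.4 CPM (2.59 ± 0.37, edgeR adjusted p = 0.00559), with replicate 1 the lowest of its group. Of 12 smooth muscle and pericyte markers, 3 rose (Acta2, Cspg4 and Notch3) and 0 fell, where 1.55% of all tested genes rose and 3.29% fell. The summed level of the 12 markers was 1102 to 1377 CPM in wild type, against 1923 to 2429 CPM in overexpression. Acta2, smooth muscle actin, made up most of that difference. Without Acta2 the sums were 1086 to 1356 and 1242 to 1616 CPM, which overlap. Those 11 genes include Des, also 1 of the 33 sarcomere genes, which supplied much of each sum (means 724 ± 112 against 751 ± 135 CPM, SD). The overlap therefore does not show how the remaining markers moved, and no sum without Des was taken. Of the 12 markers, 5 lay wholly above wild type and 0 wholly below, as did 8.99% and 10.8% of all tested genes. The part of these markers in the Kcnma1 level was not tested.

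Pde3a, the cGMP-inhibited phosphodiesterase, fell from 131 ± 8.60 to 85.3 ± 13.5 CPM (-0.62 ± 0.13, edgeR adjusted p = 0.0303), and Prkg1, the cGMP-dependent kinase, from 83.5 ± 10.6 to 58.9 ± 5.54 CPM (-0.50 ± 0.12, adjusted p = 0.0452); Prkg1 is outside the rule for named genes and was chosen as a called gene after its values were seen. Each call depended on single libraries. The adjusted p of Pde3a was 0.0785, 0.137 and 0.0966 without wild type replicates 1, 2 and 3 and 0.0809 without overexpression replicate 3. That of Prkg1 was 0.169 and 0.205 without wild type replicates 1 and 2, 0.103 without overexpression replicate 2 or 3, 0.0528 without overexpression replicate 4, 0.112 without both libraries with Y-linked transcripts, 0.0586 with the Y-linked level in the model and 0.0526 by limma-voom. With library totals only they were 0.0588 and 0.0906, and scaled to the sarcomere genes 0.879 and 0.598, where Prkg1 stood at 0.08 and so changed sign. Without overexpression replicate 1, the cGMP list held 4 higher and 3 lower genes; leaving out wild type replicate 1, wild type replicate 2 or overexpression replicate 3 left 2 higher and 1 lower, and library totals only gave 3 higher and 1 lower.

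Soluble guanylyl cyclase and nitric oxide genes, the other source of cGMP, had 0 of 8 called by edgeR, DESeq2 or limma-voom. At an unadjusted p under 0.05, 0 were higher and 2 lower, where 9.14% and 10% of all tested genes were. Nos3, the endothelial synthase, was at -0.60 ± 0.23 and Gucy1a3 and Gucy1b3, the cyclase subunits, at -0.44 ± 0.15 and 0.30 ± 0.14. Among 27 transcription factors tied to Nppa and Nppb, Zfpm2 itself and Hand2 rose and 0 fell by edgeR. That test called 1.55% of all tested genes higher and 3.29% lower. DESeq2 and limma-voom also called 0 of the 27 lower, where they called 5.12% and 3.27% of all tested genes lower. At an unadjusted p under 0.05, 5 were higher and 1 lower, as were 9.14% and 10% of all tested genes. The lower one was Tbx5 (-0.45 ± 0.18, edgeR adjusted p = 0.207), with all overexpression libraries below wild type. Tbx5 is outside the rule for named genes and was named after its values were seen. Hand2 (0.65 ± 0.13, edgeR adjusted p = 0.0235) lost its call when overexpression replicate 4 (0.0668), wild type replicate 1 (0.121) or wild type replicate 2 (0.123) was left out. It also lost its call without both libraries with Y-linked transcripts (0.0585). Mef2c was at 0.48 ± 0.16 and Srf at 0.35 ± 0.13.

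**Figure D5:**
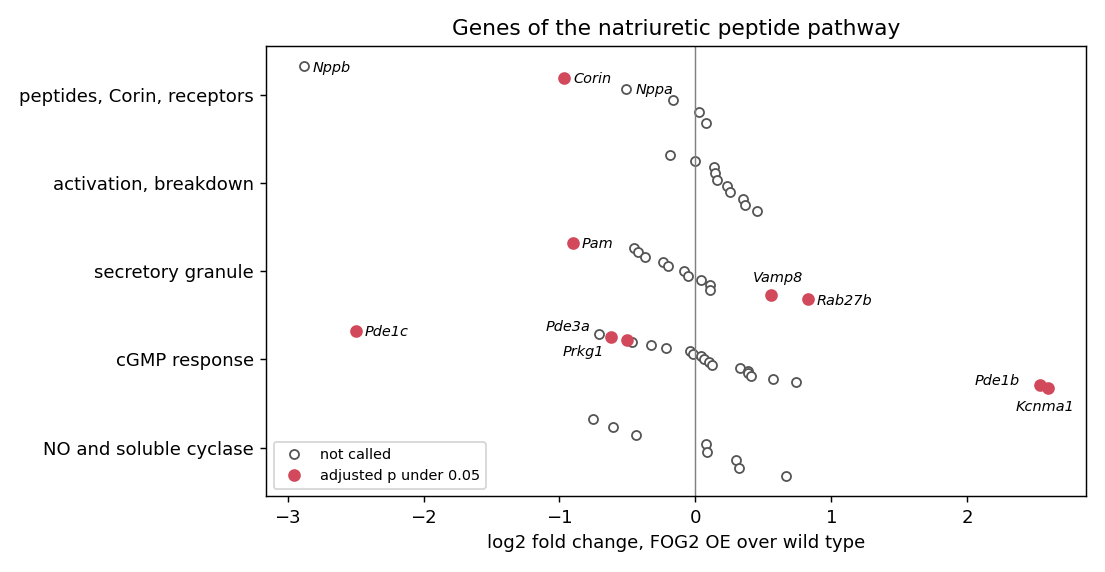
Log2 fold change of each tested gene in 5 lists of the natriuretic peptide pathway; filled points have an adjusted p under 0.05 and open points do not. Corin is the 1 called gene of the top group, and the largest called differences in the cGMP response list are those of Pde1c (-2.50), Pde1b (2.53) and Kcnma1 (2.59).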

How the data were processed

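The deposited table gives whole-number counts per gene for 7 libraries. The submitters' processing notes list mm10, HTSeq 0.6.0, STAR and DESeq2, without roles; strand setting and annotation are not given in the sources used. The libraries are labelled polyA, while the protocol names ribosomal RNA removal. Rows naming no gene (no feature 23.4% to 30.5% of reads, several alignments 37.1% to 43.4%, ambiguous 0.101% to 0.254%) were left out. Genes were filtered with filterByExpr (minimum count 10, total 15), TMM-scaled, and tested in edgeR 4.0.16 (R 4.3.3). The test was the robust quasi-likelihood F test, two-sided, with Benjamini-Hochberg adjustment over 13295 genes and a threshold of 0.05. It was checked on simulated counts with the same dispersion for every gene and no library that stood apart. That check does not cover a spread like that of Nppb. Each SE is the size of the log2 fold change divided by the square root of F. Log2 CPM used a prior count of 2, and TPM the summed exon length of GENCODE M21, found for 95.7% of genes. Alternatives included DESeq2 1.42.0 and limma-voom (limma 3.58.1). The members and lists were chosen with earlier results of these data known. Named were the members, Zfpm2, up to 4 genes of smallest p per list, 5 neighbours a side (1 of them is not reported here) and the 3 genes most like each member; some genes so named are given only in counts. Promoters matched RefSeq by symbol for all 7 members.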

Additional observations from a re-analysis of the deposited data

Results flagged for a closer look

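Among 10 sets of 4 overexpression values examined for 1 value far from the rest (the 7 members, Zfpm2 and the 2 ratios), 2 stood out, both through Nppb in overexpression replicate 1. For Nppb CPM, the gap between replicate 1 (168) and the next library (19.6) was 0.921 of the group's whole range, above Dixon's critical value of 0.829. For the ratio of Nppb to Nppa reads, that gap was 0.868 of the range, with 0.765% in replicate 1 and at most 0.143% in the others. The 2 values share the Nppb reads and are not separate evidence. Chance picks out about 1 in 20 such groups. The 2 gaps above were taken on the CPM and ratio scales. On the log2 CPM scale, Nppb in replicates 1 to 4 lay at -1.23, -4.31, -5.77 and -4.62 relative to the wild type mean. There the gap is a smaller part of the range, and values on the log2 scale were not tested in this way.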

How the results depend on the processing

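Corin and Zfpm2 kept their direction and call in all 20 alternatives. Nppb was negative in all 20 (edgeR -2.88) and passed the threshold in 4: limma-voom (-3.86), the Y-linked level as a covariate (-3.78), without overexpression replicate 1 (leaving out 1 library at a time gave -4.77 to -2.53, with adjusted p from 8.24e-05 to 0.374) and without both libraries holding Y-linked transcripts (-4.76). The count of members called lower was 2 in those 4 and 1 to 2 when 1 library was left out. Scaled to the sarcomere genes, Nppa was 0.061, and Npr1 (0.69), Npr2 (0.62) and Npr3 (0.43) passed the threshold, so 3 members were called higher; relative to the median gene (0.605) they stood at 0.08, 0.01 and -0.17. Npr1 was -0.090 to 0.22 and Npr2 -0.076 to 0.16 with 1 library left out, and Npr2 was -0.00130 by limma-voom, -0.047 with the replicate block and -0.011 with the Y-linked covariate. Over all genes, calls higher and lower (206 and 438) were 444 and 294 with library totals only (median gene 0.145), 8341 and 175 scaled to the sarcomere genes, 460 and 681 by DESeq2, and 75 to 493 and 181 to 658 with 1 library left out. Genes of the pathway lists called higher (7) were 13 with library totals only, 60 scaled to the sarcomere genes, 11 by DESeq2, and 3 to 12 with 1 library left out; those called lower (9) were 3 scaled to the sarcomere genes and 1 to 10 with 1 library left out. The causes were not tested, though a fit with fewer libraries has less power. With the replicate number as a block, 129 genes were higher and 253 lower and 4 list genes higher, Nppb stood at -3.67 (adjusted p = 0.234) Corin kept its call, and Vamp8 (adjusted p = 0.0863), Rab27b (0.0549), Prkg1 (0.0791), Hand2 (0.108) and Adm (0.0873) did not; deviations of same-numbered libraries correlated at 0.0789, 0.0136 and 0.0720, and not every library was closest to its own number, so the numbers do not pair the samples. In the 250 bases before the start only, 2 members held GATA against 3 in the whole window. The 40 Nppb reads of overexpression replicate 3 and the 18 Nppc reads in all limit the precision of those values.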

Other observations

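Genes that oppose or parallel the natriuretic peptides moved both ways. Of 12 tested genes of the renin-angiotensin-aldosterone, endothelin, adrenomedullin and apelin systems, 3 fell and 1 rose, with a median of -0.03. Among all tested genes, 3.29% fell and 1.55% rose. Ednra, the endothelin A receptor, fell from 41.1, 49.9 and 48.6 CPM in wild type to 12.4, 19.4, 23.1 and 25.0 CPM in overexpression (-1.22 ± 0.21, edgeR adjusted p = 0.0127). Agtr1a, the angiotensin II type 1 receptor, fell from 12.9 ± 2.52 to 5.63 ± 1.06 CPM (-1.20 ± 0.21, adjusted p = 0.0132), and Ednrb, the endothelin B receptor, from 153 ± 32.4 to 95.1 ± 10.03 CPM (-0.68 ± 0.15, adjusted p = 0.0337). Adm, encoding the vasodilator adrenomedullin, rose from 6.20 ± 0.737 to 12.1 ± 2.24 CPM (0.97 ± 0.19, adjusted p = 0.0231). The endothelin gene Edn1 had the largest fold change of the list but was not called (2.71 ± 0.63, edgeR adjusted p = 0.0511). It had 4.53, 2.97 and 2.96 CPM in wild type, against 50.9, 15.7, 9.39 and 15.1 CPM in overexpression replicates 1 to 4. Edn1 is outside the rule for named genes and was named after its values were seen. Leaving out wild type replicate 2 ended all 4 calls (adjusted p of 0.0676 for Ednra, 0.0828 for Agtr1a, 0.112 for Ednrb and 0.117 for Adm). Without wild type replicate 1 the adjusted p was 0.133 for Ednrb and 0.0635 for Adm, and without wild type replicate 3 it was 0.0529 for Ednra, 0.0547 for Agtr1a and 0.0840 for Adm. Ednrb also lost its call without overexpression replicate 2 (0.0838), 3 (0.0829) or 4 (0.0671) and with library totals only (0.0635), and Adm without overexpression replicate 4 (0.0567). Scaled to the sarcomere genes, Agtr1a had an adjusted p of 0.0551 and Ednrb of 0.527.

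Of 15 tested genes of the stretch and fetal programme, 2 fell (Ankrd1 and the sodium-calcium exchanger gene Slc8a1, -0.90 ± 0.15, adjusted p = 0.0111, or 0.0648 without wild type replicate 2 and 0.0548 scaled to the sarcomere genes) and 0 rose by edgeR, with 3 higher at an unadjusted p under 0.05 and 1 higher by DESeq2 and by limma-voom. EdgeR called 3.29% of all tested genes lower and 1.55% higher, and 9.14% were higher at an unadjusted p under 0.05. DESeq2 called 3.46% of them higher and limma-voom 1.38%. The list had 3 lower and 1 higher without overexpression replicate 1, and 0 lower without wild type replicate 2. It had 1 lower without wild type replicate 1 or 3 or overexpression replicate 2 or 4. Slc8a1 had 1175, 1385 and 1266 CPM in wild type, against 766, 511, 719 and 734 CPM in overexpression, where replicate 1 was again the highest. Fhl1, a stretch-sensing LIM protein, was at 1.06 ± 0.25 (adjusted p = 0.0519); it was called higher under several alternatives, among them limma-voom (adjusted p = 0.0444), library totals only (0.0225) and leaving out overexpression replicate 1 (0.81 ± 0.15, adjusted p = 0.00883) or 3 (0.0359). Myh7 and Acta1, fetal contractile genes, were at -0.38 ± 0.19 and 0.34 ± 0.60; both were named after their values were seen.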
